A study of Mus musculus with 35 samples.

Results

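The ELAV and CELF genes encode RNA-binding proteins, and 10 of them are described here: Elavl1, Elavl2, Elavl3, Elavl4, Celf1, Celf2, Celf3, Celf4, Celf5 and Celf6. They were taken by gene name from a table of 54393 genes. The set was chosen by the measured nuclear share of the Celf4 and Elavl3 mRNAs, which was higher after knockdown of Chtop, so those values are a description and carry no test. Counts exist for 9 of the 10, among 9239 genes with counts. Celf2 has only length-scaled values.

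ELAV proteins, also called Hu proteins, bind AU-rich and U-rich stretches of messenger RNA, mostly in 3' UTRs, and tend to stabilise the mRNA or to raise its translation. Elavl1 (HuR) is made in nearly all cells, and Elavl2 (HuB), Elavl3 (HuC) and Elavl4 (HuD) are typical of neurons. CELF proteins bind GU-rich stretches, act in alternative splicing in the nucleus and in mRNA decay and translation in the cytoplasm, and are broad (Celf1, Celf2) or mainly neuronal (Celf3, Celf4, Celf5, Celf6). Chtop binds chromatin and RNA, and it joins the TREX complex, which readies mRNA for export.

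Poly(A) RNA was sequenced from N2a Flp-In rtTA cells, a mouse neuroblastoma line carrying a doxycycline-inducible, siRNA-resistant Chtop cDNA, either without exon 5 (line mEx5) or with exon 5 (line pEx5). Each line was transfected with a non-targeting siRNA pool (control), with 1 Chtop siRNA product (knockdown), or with that siRNA followed by doxycycline from 24 h (rescue), and was harvested at 72 h. Total lysate, nuclei and cytoplasm were sequenced in 35 libraries, 18 groups of 2 biological replicates each except the pEx5 control cytoplasm, which has 1. No library combined control siRNA with doxycycline, so effects of doxycycline and of the cDNA cannot be told apart in the rescue. Fractions were compared in CPM (counts scaled to the library total) after TMM scaling, so a nuclear to cytoplasmic ratio is relative to the typical gene and is not an amount of RNA per cell.

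Library totals were 20652832 to 36102129 counts in total lysate, 11681781 to 28705620 in nuclei and 19478702 to 40105458 in cytoplasm. Chtop was at 125 to 139 CPM in control total lysate, 19.8 to 34.7 CPM in knockdown and 186 to 282 CPM in rescue. Each total lysate library thus matched the condition of its label, while the line was not checked by this level. The knockdown of Chtop was smaller in nuclei (94.9 to 129 CPM in control, 57.3 to 70.6 CPM in knockdown). Malat1, a nuclear RNA, was at 792 to 1216 CPM in nuclei and 44.4 to 77.7 CPM in cytoplasm. Of 19 neuronal and neuroblastoma markers, 15 had a mean above 1 RPKM in control total lysate, with Tubb3 at 768 RPKM and Phox2a at 233 RPKM, while Nefl, Nefm and Dcx were near 0. Their summed level moved with the condition, from 2357 to 2571 RPKM in control to 1752 to 2096 RPKM in knockdown and 1697 to 2055 RPKM in rescue. The part of this shift in the results below was not tested. The defining markers Col3a1 of fibroblasts, Aqp4 of astrocytes and Ptprc of blood cells were at 0 RPKM in every total lysate library. In bulk samples, fewer cells of a type and less RNA per cell cannot be told apart.

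The mRNAs of these genes carry some of the elements that their own proteins are known to bind. In the longest annotated 3' UTR of each gene (GENCODE release 21 of the mouse, mm10; 1075 to 7381 bases), the AU-rich heptamer TATTTAT occurred in 8 of the 10 and the GU-rich heptamer TGTTTGT in 6, on the transcript strand only. Over the 8825 genes with counts and a 3' UTR, 29.7% held TATTTAT and 29.6% held TGTTTGT, and the share rose with length. Among UTRs within 25% of the length of each member's own, it ran from 25.6% (Celf3, 1075 bases) to 73.7% (Celf2, 7381 bases) for TATTTAT and from 22.2% (Celf3) to 85.2% (Celf2) for TGTTTGT. Over the 10 genes the mean of these shares was 48.9% for TATTTAT and 53.2% for TGTTTGT, so the 6 genes with TGTTTGT are close to the share at their lengths. For the 4 genes whose windows follow, 44.5% (Elavl2) and 53.7% (Elavl3) of UTRs of like length held TATTTAT, and 79.8% (Celf1) and 54.5% (Celf5) held TGTTTGT. The 4 windows below show the first such match in Elavl2 and Elavl3, which differ in how their mRNAs moved, and in Celf1 and Celf5, which rose. Each has 29 bases, 5' to 3', with the heptamer in capitals, and the letters are those of the reference transcripts. The genes lie at chr4:91250763-91400785 (Elavl2), chr9:22015005-22052023 (Elavl3), chr2:90940382-91019497 (Celf1) and chr10:81459227-81482709 (Celf5).
Elavl2 (chr4:91252699-91252727, minus strand): gtttacattttTATTTATgaagttacaaa
Elavl3 (chr9:22016025-22016053, minus strand): ctgtgtttaacTATTTATtctccttgttg
Celf1 (chr2:91013658-91013686, plus strand): aaagtttgctgTGTTTGTaaccagtttgt
Celf5 (chr10:81459778-81459806, minus strand): ttctaccaaaaTGTTTGTtgactgaccta
Elavl2 and Elavl3 held 3 matches each to the AU-rich heptamer, Elavl1 held 8, and Celf5 and Celf6 held none. Celf1 held 3 matches to the GU-rich heptamer, Celf5 held 2, and Elavl3, Celf3, Celf4 and Celf6 held none. A match is a description of the letters and not a bound site. In the authors' deposited table, 6 of the 9 members with counts are marked as overlapping Chtop iCLIP, a crosslinking assay of RNA bound by the protein, against 48.5% of all 9239 genes. The authors' deposited table marks Elavl3, Elavl4, Celf1, Celf3, Celf4 and Celf6, and does not mark Elavl1, Elavl2 or Celf5.

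Levels per length (RPKM) placed 9 of the 10 genes among well-expressed mRNAs of these neuroblastoma cells, and 1 near 0. In control total lysate, the mean was 55.0 ± 6.41 RPKM for Elavl4, 51.9 ± 0.721 RPKM for Celf1, 40.5 ± 8.54 RPKM for Celf3, and 37.5 ± 3.41 RPKM for Elavl2 (SD, n = 4 libraries from both lines). It was 36.5 ± 1.89 RPKM for Elavl1, 35.4 ± 4.23 RPKM for Elavl3 and 30.7 ± 4.07 RPKM for Celf6 (SD, n = 4). Down to Celf6, each gene in this order overlapped the next in its range over libraries. Below them, Celf4 had 18.9 ± 1.25 RPKM and Celf5 8.92 ± 0.403 RPKM (SD, n = 4), and neither overlapped its neighbours. Celf2 was listed at 0 in 31 of 35 libraries and reached at most 0.04 RPKM, so no comparison of it was made. These cells thus held mRNA of all 4 ELAV genes and of 5 of the 6 CELF genes.

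**Figure D1:**
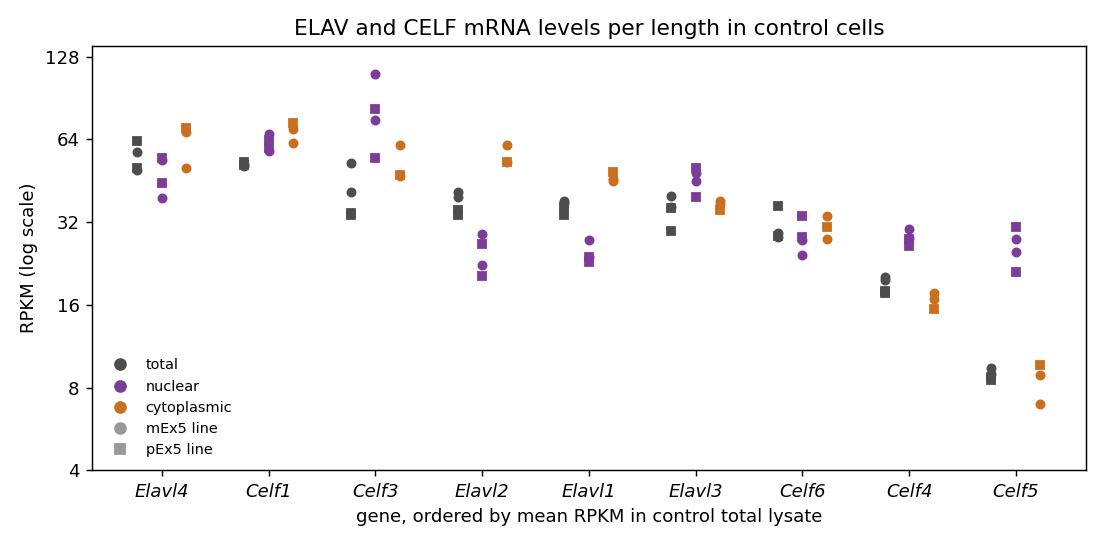
RPKM (log scale) of the 9 genes with counts in each control library, by fraction (colour) and line (marker shape), ordered by the mean in total lysate. Celf4 and Celf5 sit below the other genes in total lysate, and both are higher in nuclei than in cytoplasm in every library.

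After Chtop knockdown, total lysate held less Elavl2, Celf4 and Celf6 mRNA and more Celf1 and Celf5 mRNA than the control, over both lines together. Of the 9 genes tested, 5 passed edgeR's quasi-likelihood test at an adjusted p under 0.05, 2 higher and 3 lower, where 43.9% of all 9237 genes tested passed, 21.4% higher and 22.6% lower. The share of members called is thus close to that of all genes. The total lysate libraries did not enter the choice of Celf4 and Elavl3, but they came from the same cultures. The total lysate tests of these 2 genes are thus not independent of that choice. The median log2 fold change was 0.0033 over the 9 genes and 0.0097 over all genes.

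Elavl2 had the largest change in total lysate among the 9 genes. Its 4 control libraries were at 71.4, 69.7, 63.0 and 60.3 CPM, its knockdown libraries at 44.2, 47.6, 43.0 and 38.8 CPM, and its rescue libraries at 49.8, 46.0, 35.6 and 41.3 CPM (mEx5 replicates 1 and 2, then pEx5 replicates 1 and 2). Every control library lay above every knockdown and rescue library. Elavl2 fell 1.54-fold after knockdown (log2 -0.62, SE 0.07, edgeR adjusted p = 0.000117), with -0.63 in mEx5 and -0.61 in pEx5. Elavl2 mRNA was also on the cytoplasmic side in control cells (values below).

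The other ELAV genes moved less in total lysate. Elavl1 was at 103 to 114 CPM in control and 122 to 131 CPM in knockdown, without overlap, but missed the threshold (log2 0.17, SE 0.06, edgeR adjusted p = 0.0529). With a block for the replicate, which pairs the total lysate libraries, Elavl1 was called (edgeR adjusted p = 0.00543; 62.9% of all genes were called there), and over the alternatives its adjusted p ran from 0.00543 to 0.194. Exons of Elavl1 overlap Ccl25 on the opposite strand, and the sources used here do not say whether the counting used strand. Exons of Celf3 overlap Riiad1 and those of Celf5 overlap Gm16105, also on the opposite strand, and those of Elavl3 overlap Gm49318 on the same strand. Of these 4 overlapping genes, only Ccl25 has counts of its own. Elavl3 was at 145 to 190 CPM in control and 160 to 192 CPM in knockdown, with a log2 difference of 0.0033 (SE 0.08, edgeR adjusted p = 0.976). Elavl4 was at 97.2 to 125 CPM in control and 89.1 to 113 CPM in knockdown (log2 -0.09, SE 0.12, edgeR adjusted p = 0.561). The groups overlapped for both, so no change in the total level of Elavl3 or Elavl4 was detectable here.

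Among the CELF genes, Celf1 and Celf5 rose. Celf1, the broadly made CUG-binding protein, was at 174, 175, 181 and 178 CPM in control and 227, 220, 237 and 216 CPM in knockdown. The groups did not overlap, and the rise was 1.26-fold (log2 0.33, SE 0.06, edgeR adjusted p = 0.00155). Celf5, the lowest of the 9 genes per length, was at 29.4, 31.5, 28.5 and 29.3 CPM in control and 35.2, 37.8, 42.1 and 43.0 CPM in knockdown, again without overlap. It rose 1.31-fold (log2 0.39, SE 0.07, edgeR adjusted p = 0.00229), with log2 values of 0.25 in mEx5 and 0.54 in pEx5, a line difference of 0.29 (SE 0.15) that did not pass edgeR's test (adjusted p = 1). With each line on its own, Celf5 was called in pEx5 (edgeR adjusted p = 0.00599) and not in mEx5 (edgeR adjusted p = 0.113).

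Celf4 and Celf6 fell by smaller amounts. Celf4, a neuronal CELF protein known for binding many synaptic mRNAs, was at 57.8, 60.8, 54.3 and 53.3 CPM in control and 51.8, 45.6, 48.2 and 42.6 CPM in knockdown, without overlap (1.21-fold lower, log2 -0.28, SE 0.09, edgeR adjusted p = 0.0241). Celf6 was at 59.2, 62.8, 61.3 and 79.2 CPM in control and 47.5, 57.5, 50.4 and 63.2 CPM in knockdown, with overlap (1.21-fold lower, log2 -0.28, SE 0.10, edgeR adjusted p = 0.0499). The Celf4 call was lost without any 1 of the 4 control libraries or without replicate 2 of either knockdown (edgeR adjusted p = 0.0528 to 0.0813, with 0.000471 the lowest over all alternatives). The Celf6 call was lost in 9 of 12 fits that left out 1 library, all but those without pEx5 control replicate 1 or replicate 2 of either knockdown (edgeR adjusted p up to 0.205, lowest over all alternatives 0.000281). It was also lost with scaling to library totals alone (edgeR adjusted p = 0.103) and with all 35 libraries in 1 fit (edgeR adjusted p = 0.0682). With each line on its own, Celf4 was called in neither (edgeR adjusted p = 0.106 in mEx5 and 0.137 in pEx5). Nor was Celf6 (edgeR adjusted p = 0.283 in mEx5 and 0.124 in pEx5). Celf3 had 83.3 to 127 CPM in control and 93.6 to 143 CPM in knockdown, overlapped, and did not pass (log2 0.15, SE 0.12, edgeR adjusted p = 0.324).

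**Figure D2:**
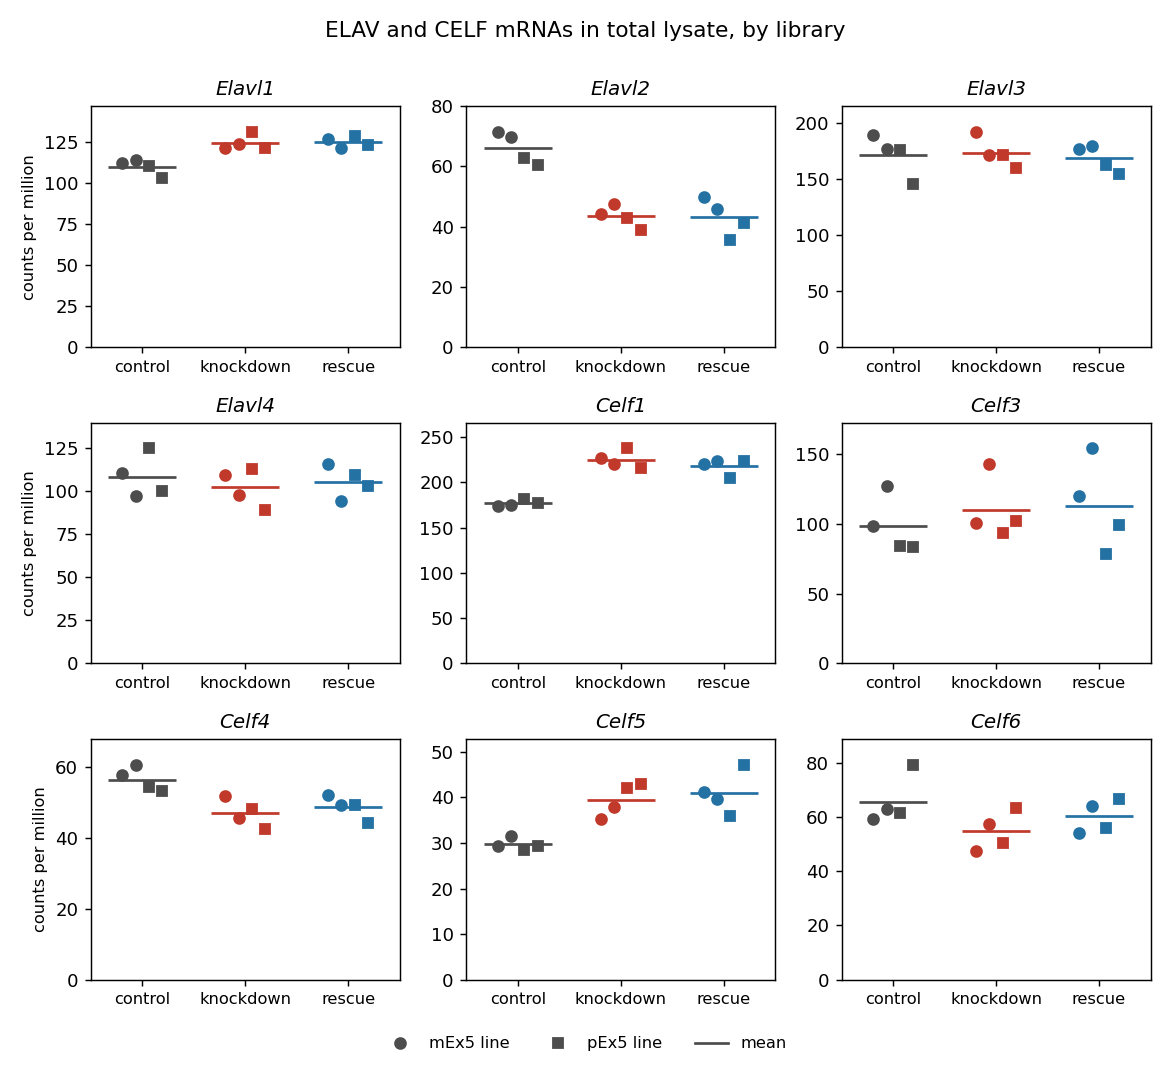
CPM in each total lysate library for the 9 genes with counts, by condition, with the line shown by marker shape and the mean of each condition as a bar of its colour (each vertical axis starts at 0). Elavl2 and Celf4 are lower, and Elavl1, Celf1 and Celf5 are higher, in every knockdown and rescue library than in every control library.

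In the rescue, with Chtop re-expressed, the levels of Elavl2, Celf1, Celf4 and Celf5 lay nearer to those of the knockdown than to those of the control. Celf6 lay between them, at 60.1 ± 6.12 CPM against 65.6 ± 9.19 CPM in control and 54.6 ± 7.11 CPM in knockdown (SD, n = 4). Between rescue and knockdown in total lysate, 0 of the 9 genes passed edgeR's test and 0 had an unadjusted p under 0.05, where 0.0217% of all genes (2 of 9237) passed, and DESeq2 also called 0 of the 9. The differences ran from log2 -0.06 (Celf1) to 0.13 (Celf6), with SE of 0.06 to 0.12. Rescue and knockdown libraries overlapped in all 5 of the genes that had changed. Against the control, with which the knockdown comparison shares its libraries, the rescue had 3 of the 9 genes called, where 37.3% of all genes were. Elavl2 was lower (log2 -0.64, SE 0.07, edgeR adjusted p = 0.00014), and Celf1 (log2 0.28, SE 0.06, edgeR adjusted p = 0.00525) and Celf5 (log2 0.44, SE 0.07, edgeR adjusted p = 0.00161) were higher. With the replicate block, 6 of the 9 were called, adding Elavl1, Celf4 and Celf6, where 57.9% of all genes were called.

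No difference between the 2 lines was detectable in these genes by the planned fit. The difference between lines in the knockdown change called 0 of the 9 genes in total lysate, as did the difference between lines in the rescue change and the comparison of the 2 control lines, and in each of these 0% of all genes passed edgeR's test. At an unadjusted p under 0.05, the first and second of these comparisons held 0 of the 9 genes and the third held 1, Celf3, named after its value was seen. DESeq2 called 0 of the 9 in each. With the replicate block, Celf3 was called lower in pEx5 than in mEx5 control, where 3.43% of all genes were called. Its log2 difference was -0.44 (SE 0.17), with 98.4 and 127 CPM in mEx5 against 84.2 and 83.3 CPM in pEx5.

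In control cells the members were spread widely between nucleus and cytoplasm. Of the 7 genes that the choice of members did not rest on, Celf5 and Celf3 were higher in nuclei, Elavl2 and Elavl1 were higher in cytoplasm, and 3 did not pass, so 4 of 7 were called where 69.9% of all 9239 genes were, 33.8% higher and 36.1% lower in nuclei. Celf5 was the most nuclear of them, with 92.4 to 137 CPM in 4 nuclear and 23.5 to 32.5 CPM in 3 cytoplasmic libraries, a 3.95-fold difference (log2 1.98, SE 0.16, edgeR adjusted p = 2.53e-08). Celf3 had 175 to 361 CPM in nuclei and 116 to 150 CPM in cytoplasm (log2 1.06, SE 0.22, edgeR adjusted p = 0.000445). Neither gene overlapped between fractions.

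The 2 genes called on the cytoplasmic side were both ELAV genes. Elavl2 had 48.3 to 66.2 CPM in nuclei and 94.5 to 109 CPM in cytoplasm (log2 -0.77, SE 0.13, edgeR adjusted p = 9.01e-05). Elavl1 had 92.5 to 108 CPM in nuclei and 138 to 148 CPM in cytoplasm (log2 -0.54, SE 0.08, edgeR adjusted p = 2.61e-05). The fractions did not overlap for either gene. Elavl4 (log2 -0.03, SE 0.14), Celf1 (0.23, SE 0.11) and Celf6 (0.28, SE 0.13) did not pass. With the replicate block Celf1 (edgeR adjusted p = 0.00396, 0.35 at most over its alternatives) and Celf6 (edgeR adjusted p = 0.0163, 0.228 at most) were called as nuclear, where 75.3% of all genes were called. DESeq2 also called 6 of the 7 genes (70.9% of all genes). So did a fit of all 35 libraries (71.8%) and a block for the culture, which pairs nuclei with cytoplasm (69%). In RPKM as deposited, with no scaling to the typical gene, the median gene was at log2 -0.42 in nuclei over cytoplasm. There Celf1 was at 62.0 ± 4.02 RPKM in nuclei (SD, n = 4) and 68.4 ± 5.89 RPKM in cytoplasm (SD, n = 3), and Celf6 was at 28.4 ± 3.82 and 30.7 ± 2.95 RPKM, so the direction of both depends on that scaling. Celf4 and Elavl3, given as a description, were 2.26-fold (log2 1.18, SE 0.09) and 1.65-fold (log2 0.72, SE 0.11) higher in nuclei. The authors' deposited table gives log2 nuclear to cytoplasmic values in control of 1.19 for Celf4, 0.70 for Elavl3, -1.16 for Elavl1, -1.18 for Elavl2 and -0.49 for Elavl4, so the values of these last 3 genes there lie further toward the cytoplasm than the fitted ones. The authors' deposited table gives 0.19 for Celf1 and 0.54 for Celf6.

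Knockdown of Chtop went with a higher nuclear to cytoplasmic ratio for Celf4 and Elavl3, the values on which the choice of genes rested. Each culture gives 1 ratio of its own nuclei to its own cytoplasm. For Celf4 the ratio was 2.02, 2.42 and 2.36 in 3 control cultures (mEx5 replicates 1 and 2, pEx5 replicate 1) and 4.88, 4.82, 4.12 and 3.97 in 4 knockdown cultures (mEx5 replicates 1 and 2, pEx5 replicates 1 and 2). For Elavl3 it was 1.65, 1.60 and 1.86 in control and 3.12, 2.93, 3.60 and 2.43 in knockdown. Every knockdown culture was above every control culture for both genes. The fitted change was 1.96-fold for Celf4 (log2 0.97, SE 0.11) and 1.82-fold for Elavl3 (log2 0.86, SE 0.14). By line, it was log2 1.13 in mEx5 and 0.81 in pEx5 for Celf4, and 0.89 and 0.83 for Elavl3.

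The other 7 genes stayed within 1.5-fold, from log2 -0.19 (Celf3) to 0.28 (Elavl2). Thus 2 of the 9 genes were past 1.5-fold, both higher, where 3.67% of all genes were past it in either direction 2.71% higher and 0.963% lower, and nothing is read from this count since the ratio chose the genes. Of all genes past 1.5-fold, 73.7% were higher with TMM scaling and 38.1% with scaling to library totals alone. With library totals alone the ratio changes were log2 0.87 for Celf4 and 0.76 for Elavl3. The summed level of 4 nuclear RNAs (Malat1, Neat1, Meg3, Kcnq1ot1) in cytoplasm was 19.9 to 27.2 RPKM in control, 26.2 to 36.8 RPKM in knockdown and 27.5 to 31.8 RPKM in rescue. A set of 6 glial markers, with Aqp4 at 0 in total lysate, summed to 18.5 to 30.1 RPKM in control nuclei and 37.6 to 47.1 RPKM in knockdown nuclei. The part of either in the ratios was not tested.

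**Figure D3:**
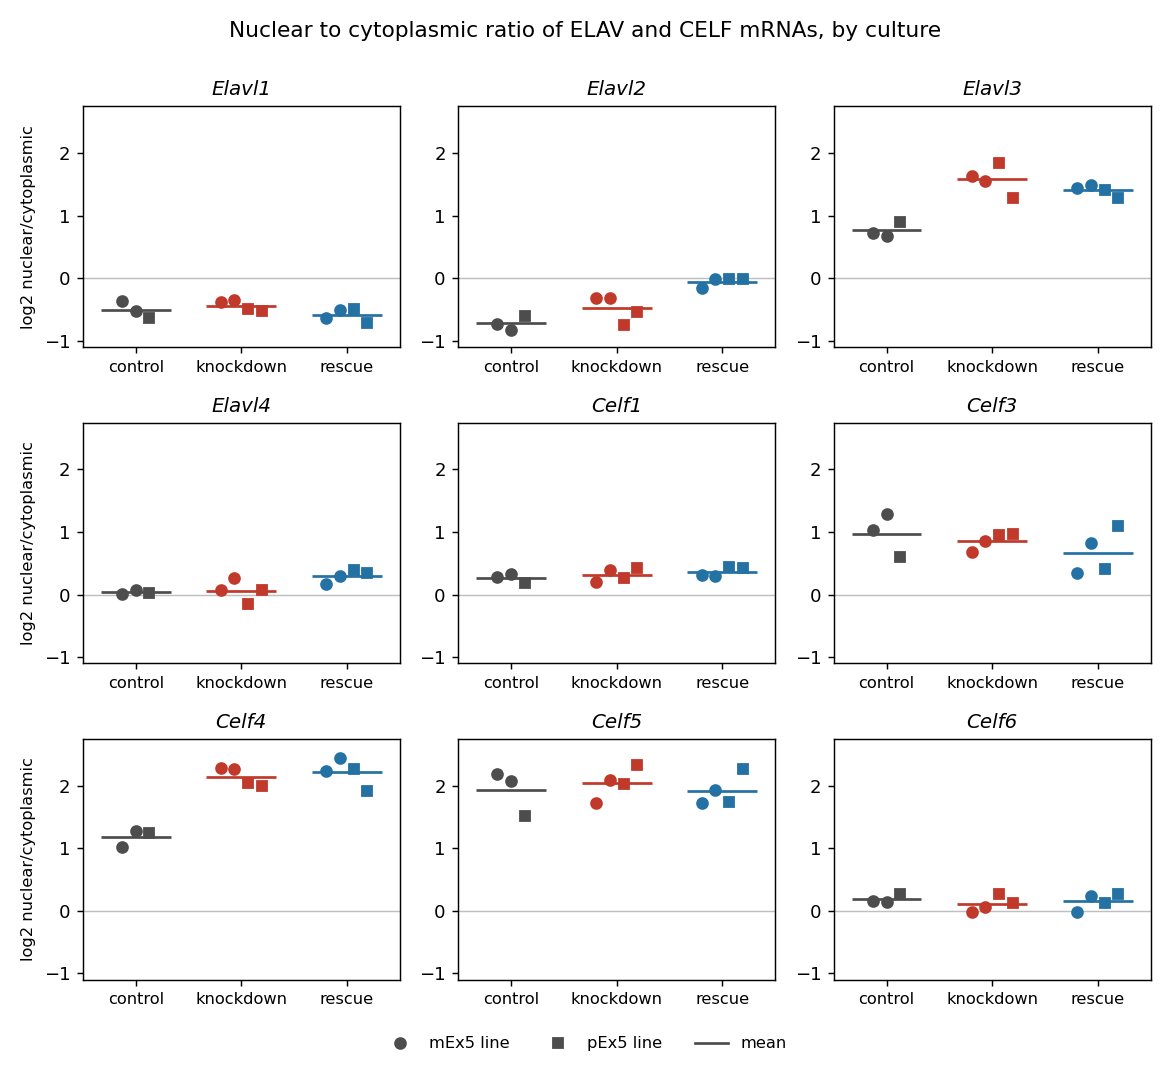
Log2 ratio of nuclear to cytoplasmic CPM (TMM-scaled) for each culture with both fractions, by condition and line (marker shape), with the mean as a bar; 0 means equal to the typical gene. Celf4 and Elavl3 are higher in all knockdown and rescue cultures than in all control cultures, and Elavl2 is higher in all rescue cultures than in all control and knockdown cultures.

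The 2 sides of that ratio differed between the genes. For Celf4, nuclei held 109, 122, 110 and 105 CPM in control and 143, 148, 121 and 112 CPM in knockdown, and cytoplasm held 53.7, 50.9 and 46.8 CPM in control and 31.9, 33.5, 31.2 and 30.2 CPM in knockdown. The cytoplasmic libraries did not overlap and the nuclear ones did. As a description, Celf4 was 1.61-fold lower in cytoplasm (log2 -0.68, SE 0.08) and 1.22-fold higher in nuclei (log2 0.28, SE 0.07). Its total level, measured in the same cultures, was also lower.

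For Elavl3, nuclei held 304, 297, 324 and 258 CPM in control and 461, 434, 435 and 328 CPM in knockdown, and cytoplasm held 184, 188 and 175 CPM in control and 161, 162, 128 and 145 CPM in knockdown. Each fraction was without overlap. Elavl3 was 1.45-fold higher in nuclei (log2 0.54, SE 0.10) and 1.25-fold lower in cytoplasm (log2 -0.32, SE 0.11), with a total level that did not move detectably.

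Of the 5 genes called in total lysate, 4 had the same sign in both fractions. Celf1 had log2 values of 0.34 in nuclei and 0.26 in cytoplasm, Celf5 had 0.47 and 0.40, Celf6 had -0.38 and -0.20, and Elavl2 had -0.30 and -0.58. Past 1.5-fold there were 0 of the 9 genes in nuclei, where 10.1% of all genes were (5.36% higher and 4.73% lower). In cytoplasm 1 gene, Celf4, was past it on the lower side, where 10.1% of all genes were past it and 5.3% lower. Of all genes past 1.5-fold in nuclei, 53.1% were higher with TMM scaling and 40.0% with library totals alone. Elavl2 in cytoplasm lay just short of that fold and passed it in several alternatives. The plot of knockdown changes by fraction shows these values together.

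**Figure D4:**
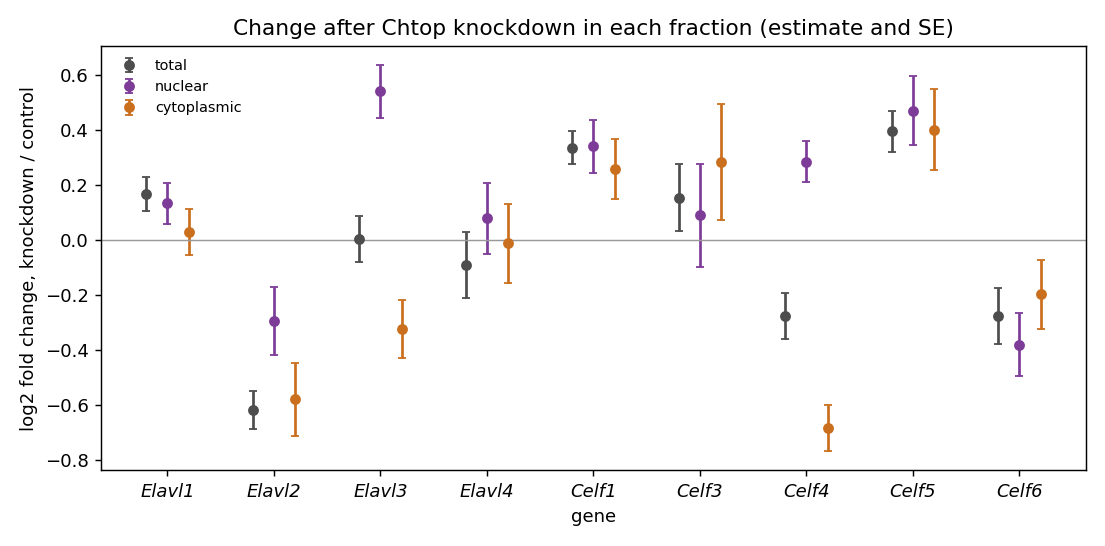
Log2 fold change of knockdown over control for the 9 genes with counts in total lysate, nuclei and cytoplasm, as the edgeR estimate with its SE (bars). Elavl3 and Celf4 have nuclear values above 0 and cytoplasmic values below 0, while Celf1 and Celf5 are above 0 in all 3 fractions and Elavl2 and Celf6 below 0 in all 3.

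The rescue cultures, which the choice of genes did not use, were tested for a difference between nuclei and cytoplasm. Of the 9 genes, 7 differed between nuclei and cytoplasm in rescue, 6 higher in nuclei and 1 lower, where 73% of all genes were called. Celf4 was 4.67-fold higher in nuclei (log2 2.22, SE 0.08, edgeR adjusted p = 1.18e-12), with ratios of 4.72, 5.44, 4.84 and 3.78 in the 4 rescue cultures. Elavl3 was 2.65-fold higher in nuclei (log2 1.41, SE 0.10, edgeR adjusted p = 2.26e-09), with ratios of 2.70, 2.80, 2.67 and 2.44. Celf4 and Elavl3 were also higher in nuclei in control, so these tests do not address a change in the ratio. All 8 of the rescue ratios lay above the control cultures of their gene and inside or near the range of its knockdown cultures. The choice of both genes rested on those control and knockdown cultures, so this comparison is a description.

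Celf5 (log2 1.93), Celf3 (0.71), Celf1 (0.37) and Elavl4 (0.30, SE 0.13, edgeR adjusted p = 0.0453) were also higher in nuclei in rescue, and Elavl1 (-0.59) was higher in cytoplasm. The Elavl4 call was lost without replicate 1 of the mEx5 knockdown nuclei, of the mEx5 rescue nuclei or of the pEx5 rescue nuclei, and without replicate 2 of either rescue cytoplasm (edgeR adjusted p up to 0.169, and from 0.000815 to 0.24 over the other alternatives). It was also lost with scaling to library totals alone (edgeR adjusted p = 0.131). The authors' deposited table puts Elavl4 on the cytoplasmic side in rescue, with log2 values of -0.36 in mEx5 and -0.32 in pEx5. In RPKM as deposited, where the median gene was at log2 -0.52 in rescue, Elavl4 was at 48.1 ± 5.61 RPKM in nuclei and 54.2 ± 5.48 RPKM in cytoplasm, and Celf1 was at 66.4 ± 4.26 and 71.9 ± 3.90 RPKM (SD, n = 4). The direction of both genes thus depends on the scaling. Celf6 (log2 0.16, SE 0.11) and Elavl2 (log2 -0.05, SE 0.12) did not pass. The 2 rescued isoforms, without and with exon 5, gave ratios that differed in 0 of the 9 genes by edgeR's test, where 0% of all genes differed, with 0 of the 9 at an unadjusted p under 0.05 and 0 called by DESeq2. The difference for Celf4 was log2 -0.24 (SE 0.15) and for Elavl3 -0.11 (SE 0.19), pEx5 minus mEx5.

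The rescue ratio minus the knockdown ratio shares its knockdown libraries with the comparison that chose the genes, and is a description. It was past 1.5-fold in 0 of the 9 genes, where 0.509% of all genes were. Celf4 had a log2 difference of 0.08 (SE 0.11) and Elavl3 of -0.18 (SE 0.13). Elavl2 had the largest difference, 0.43 (SE 0.17), with ratios of 0.605, 0.565 and 0.660 in control, 0.805, 0.802, 0.598 and 0.688 in knockdown and 0.895, 0.987, 0.987 and 0.987 in rescue. The 4 rescue cultures were above all other cultures for this gene. Its cytoplasmic libraries were at 109, 94.9 and 94.5 CPM in control, 70.2, 67.8, 79.0 and 53.5 CPM in knockdown and 64.2, 59.0, 51.9 and 50.8 CPM in rescue. Against the control, the rescue ratio was higher by log2 1.04 for Celf4, 0.72 for Elavl2 and 0.69 for Elavl3. There, 2.46% of all genes were at least 1.5-fold higher. These values too are a description, since the control cultures entered the choice of Celf4 and Elavl3, and nothing is read from that share. For knockdown against control, the authors' deposited table marks Elavl2, Elavl3 and Celf4, among these 9 genes, as increased in this ratio at its limit of 0.3. That mark rests on the same cultures by which Celf4 and Elavl3 were chosen. The share of all genes so marked was not computed, so nothing is read from the mark.

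Celf4 and Elavl3 followed each other over the 18 groups, with a Pearson r of 0.97 between their mean log2 CPM, where the points share the 3 fractions and the library scaling. These groups include the control and knockdown fractions by which both genes were chosen, so part of the likeness comes from that choice. Among 8799 genes of at least 5 CPM, the genes most like Celf4 were Tbc1d17 (r 0.99), Rps6kb2 (0.99) and Arrb2 (0.99). Those most like Elavl3 were Tedc2 (r 0.98), Vps9d1 (0.98) and Diaph1 (0.98). Celf5 had r of 0.92 with Elavl3 and 0.87 with Celf4. Of the 2 ELAV genes on the cytoplasmic side, Elavl1 had r of -0.91 with Celf4 and -0.81 with Elavl3, and Elavl2 had r of -0.26 and -0.27.

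Other regulators of the same steps are given from 3 lists, for knockdown against control in total lysate, where 21.4% of all genes rose and 22.6% fell. Of 23 neural splicing factors, 15 were tested, and 8 rose and 2 fell, with a list median of log2 0.19 against 0.0097 for all genes. Nova1, a neuronal splicing factor, rose from 32.4 ± 3.77 to 54.1 ± 7.76 CPM (SD, n = 4; log2 0.73, edgeR adjusted p = 0.00237). Ptbp2, the neuronal polypyrimidine tract-binding protein, fell from 61.7 ± 4.98 to 43.1 ± 5.11 CPM (SD, n = 4; log2 -0.54, edgeR adjusted p = 0.000271). Mbnl1 (log2 0.44), a muscleblind splicing factor, and Qk (0.44), the quaking RNA-binding protein, also rose.

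Of 37 regulators of mRNA stability and translation, 29 were tested, and 5 rose and 6 fell, close to the 21.4% and 22.6% of all genes, with a list median of log2 0.04 against 0.0097 for all genes. Lin28a, a repressor of let-7 maturation, fell from 165 ± 6.73 to 88.7 ± 5.44 CPM (SD, n = 4; log2 -0.91, edgeR adjusted p = 4.53e-06). Cpeb4 (log2 -0.90), a cytoplasmic polyadenylation factor, and Fxr1 (-0.60), a relative of the fragile X protein, fell, and Stau2 (0.59), a neuronal RNA transport protein, rose.

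Of 25 mRNAs known as ELAV targets, 20 were tested, and 3 rose and 8 fell, where 21.4% and 22.6% of all genes did, with a list median of log2 0.03 against 0.0097 for all genes. Gap43, a growth cone protein whose mRNA is a classic HuD target, fell from 273 ± 43.3 to 201 ± 66.9 CPM (SD, n = 4; log2 -0.50, edgeR adjusted p = 0.000599). Ache, the acetylcholinesterase, fell from 47.5 ± 9.92 CPM in control (SD, n = 4; log2 -0.83, SE 0.24, edgeR adjusted p = 0.0187). Sirt1 (log2 0.53), a deacetylase, and Nova1, which is on this list too, rose. Gap43 is also 1 of the neuroblastoma markers whose sum was lower in knockdown. In the nuclear to cytoplasmic ratio, 2 of the 15 tested neural splicing factors, 0 of the 29 stability regulators and 0 of the 20 ELAV targets were at least 1.5-fold higher after knockdown, against 2.71% of all genes.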

How the data were processed

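Members and lists were chosen with earlier results of these data known. Per the submitters' processing notes, the authors used Salmon 0.14.1, DESeq2 and mm10. For 9239 genes the authors deposited whole-number counts. The RPKM values the authors deposited were used for levels between genes. The labels hold no sample for 1 RPKM column, which was left out. The authors' deposited table of log2 fold changes between fractions is cited where named.

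edgeR 4.0.16 (R 4.3.3; filterByExpr, TMM, robust quasi-likelihood, 1 coefficient per group) was fitted to 12 total lysate libraries (9237 genes) and to 23 nuclear and cytoplasmic libraries together (9239 genes). P-values were adjusted by Benjamini-Hochberg across every gene in a fit, with calls under 0.05. CPM are counts scaled to the library total. DESeq2 1.42.0 and limma 3.58.1 served as alternatives, and the fits were tested on simulated data. For Celf2, limma was planned on log2(RPKM + 0.1) over genes with at least 0.5 RPKM in 2 libraries, which Celf2 did not reach.

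Named genes besides the members are the 4 of each fixed list with the largest called change in total lysate, and the 3 most similar to Celf4 and to Elavl3. Per the labels' protocols, matching wells were pooled at harvest. Same-numbered replicates deviated together in total lysate (r 0.37 to 0.80 over 15 pairs) and nuclei (0.54 to 0.74 over 15), and less evenly in cytoplasm (0.030 to 0.66 over 10), so the numbers pair the first 2. Members are paralogs, and the sources used here do not say how reads from near-identical stretches were split between them.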

Additional observations from a re-analysis of the deposited data

How the results depend on the processing

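The direction and call of Elavl2, Celf1 and Celf5 in total lysate held under each alternative run for both knockdown and rescue against control. Leaving out 1 library gave 3 to 5 genes called for knockdown, 3 to 4 for rescue against control, 0 to 1 past 1.5-fold in nuclei and 1 to 2 in cytoplasm. Leaving out a control library (mEx5 replicate 1 or 2, or pEx5 replicate 2) gave the 3. For rescue against control, 5 genes were called with library totals alone (35% of all genes), 5 when all 35 libraries shared a fit (36.9%) and 6 under the replicate block (57.9%). That block called 1 gene between the control lines (3.43% of all genes) and moved no other count of genes by over 1.5 times. In cytoplasm, 2 genes (Elavl2, Celf4) were past 1.5-fold with DESeq2, with its size factors in edgeR, with a shared fit of all 35 libraries and with RPKM centred on the median gene, the last chosen after seeing the data. Log2 values near 0 changed sign. Leaving out 1 library at a time, Elavl3 ran from -0.063 to 0.078 and Elavl4 from -0.195 to 0.0016 in total lysate (knockdown against control). Elavl4 between fractions in control ran from -0.138 to 0.088, and was 0.029 with the replicate block and 0.035 with the culture as a block. The cause was not tested. The pEx5 control cytoplasm could not be left out, since its group has 1 library. Celf2 had no test under the filter, and without it was not called. The lowest count of any of the 9 genes in a library was 526 (Celf5), and each group rests on 2 libraries at most.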
